A study of Mus musculus with 8 samples.

Results

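Tbx2, Tbx3, Tbx4, Tbx5, Foxf1, Tcf21, Hhip, Gli1 and Meox2 were followed in the lungs of CC-LR mice with and without the STAT3 inhibitor TTI-101. The 9 genes were taken by name from the gene count table, which holds 54532 genes, and each name matched a single row. They were chosen by name with the measured difference between TTI-101 and Control in view, so that difference is described for them and carries no test. All mice were CC-LR on a C57BL/6 background: Cre recombinase is expressed from the club cell secretory protein locus (CCSP) and removes the stop cassette of the LSL-K-rasG12D allele, so that mutant K-ras is switched on in lung epithelium and tumors form spontaneously. Lungs were taken at 14 weeks of age from 4 Control mice and from 4 mice that had received TTI-101, a small molecule that blocks STAT3, during the last 4 weeks. The labels do not say what the Control mice received, and the route of TTI-101 in the sequenced mice is not given in the sources used here. Both sexes were used. Poly(A) RNA of whole lung was sequenced with 1 library per mouse, so RNA of tumor, airway, alveoli, vessels, stroma and immune cells is mixed in every value, and fewer cells of a type cannot be told apart from less RNA per cell.

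The T-box genes encode transcription factors that share the DNA-binding T-box domain. In the developing lung, Tbx4 and Tbx5 act in the mesenchyme around the epithelial buds and are needed for branching, while Tbx2 and Tbx3 are repressors that keep this mesenchyme growing. Foxf1, a forkhead factor of lung mesenchyme and endothelium, lies downstream of Sonic hedgehog, the ligand that epithelium sends to the mesenchyme. The ligand binds Ptch1 on the receiving cell, which frees Smo and ends in activation of the Gli transcription factors. Gli1 is both an effector and a target of this pathway, and Hhip is a membrane protein that binds the ligand and damps the signal. Tcf21 is a basic helix-loop-helix factor of the lipofibroblast lineage, and Meox2 is a homeobox factor of mesenchyme and of vascular cells. The Cre driver acts in epithelium, whereas these 9 genes are known chiefly from other lung cells.

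Before the members are described, 1 library has to be named. Control 4 stood apart from the other 7 libraries on the first principal component of all genes, which carried 45.2% of the variance: its score was 101, and the others lay between -39.3 and 17.9. The differences of the 9 genes, their spread and their correlations are therefore given with and without it. The Control libraries held 16446481 to 26873509 counts and the TTI-101 libraries 16075855 to 25920509. Xist, which marks female tissue, was at 400 CPM (counts scaled to library size) or more in replicates 1 and 2 of each group and at 2.11 CPM or less in replicates 3 and 4, so the sexes were balanced between the groups. Over the whole table, edgeR's quasi-likelihood test called 0 of 17138 tested genes (0%) at an adjusted p under 0.05 (DESeq2 called 4 and limma-voom 0), and 1132 genes had an unadjusted p under 0.05. That last count depended on single mice, with 2393 genes without Control 1, 531 without Control 4, 711 without TTI-101 1, 2498 without TTI-101 2 and 422 without TTI-101 3.

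All 9 genes passed the filter on low counts. The table assigns a transcription factor family to 8 of them, T-box to the 4 Tbx genes, forkhead to Foxf1, bHLH to Tcf21, homeobox to Meox2 and C2H2 zinc finger to Gli1. Hhip has none, so the name of transcription factor does not cover it. On GRCm38, the T-box genes sit in a pair of clusters of the same strand. Tbx2 (chr11:85832551-85841948) and Tbx4 (chr11:85886422-85916097) are 44.5 kb apart, and Tbx3 (chr5:119670669-119684724) and Tbx5 (chr5:119832668-119885219) are 148 kb apart. Foxf1 lies at chr8:121084386-121088144 and Hhip, the longest of the set, at chr8:79965851-80058006. Gli1 (chr10:127329882-127341974), Tcf21 (chr10:22817281-22820174) and Meox2 (chr12:37108540-37179534) complete the list. No stretch of 50 bases of any T-box transcript in GENCODE M21 occurred in a transcript of another of the 9 genes, so reads of this length are not shared between these paralogs. In Tbx5, 15 of 4620 such stretches recur in other genes on the same strand. Antisense overlap was largest for Gli1, with 231 of 5123 stretches (4.51%) also present on the opposite strand in Arhgap9 or Gm47200.

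Promoter sequence could be read from RefSeq (GRCm38.p6) for 4 members, Tbx4, Tcf21, Meox2 and Hhip. These 4 are shown because the other members had no window, and a link between these sequences and the levels was not tested. Each line runs 5′ to 3′ up to the base before the transcript start, with CG dinucleotides in capitals.
Tbx4, chr11:85896515-85896764, plus strand: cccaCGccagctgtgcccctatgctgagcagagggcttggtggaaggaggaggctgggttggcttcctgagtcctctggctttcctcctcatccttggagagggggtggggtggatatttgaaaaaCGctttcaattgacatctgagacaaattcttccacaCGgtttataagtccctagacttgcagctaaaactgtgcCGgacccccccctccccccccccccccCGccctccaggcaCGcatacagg
Tcf21, chr10:22820175-22820393, minus strand: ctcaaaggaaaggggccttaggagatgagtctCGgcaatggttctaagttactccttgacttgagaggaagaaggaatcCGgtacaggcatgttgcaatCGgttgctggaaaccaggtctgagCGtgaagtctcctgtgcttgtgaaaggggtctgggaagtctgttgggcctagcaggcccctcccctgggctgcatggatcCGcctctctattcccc
Meox2, chr12:37108290-37108539, plus strand: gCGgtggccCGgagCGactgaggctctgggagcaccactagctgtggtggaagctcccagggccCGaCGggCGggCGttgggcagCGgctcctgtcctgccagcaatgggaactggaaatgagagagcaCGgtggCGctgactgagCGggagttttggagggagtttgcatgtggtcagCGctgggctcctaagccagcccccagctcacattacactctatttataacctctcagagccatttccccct
Hhip, chr8:80058009-80058258, minus strand: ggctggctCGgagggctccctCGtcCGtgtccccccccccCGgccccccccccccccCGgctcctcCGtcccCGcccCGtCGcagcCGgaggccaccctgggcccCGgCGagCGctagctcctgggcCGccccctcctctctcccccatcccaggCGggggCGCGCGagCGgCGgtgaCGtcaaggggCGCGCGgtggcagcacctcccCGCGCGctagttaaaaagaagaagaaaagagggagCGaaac
The Hhip stretch holds 28 CG dinucleotides in 250 bases. Meox2 has 12 in the same length, Tbx4 has 6, and Tcf21 has 5 in 219 bases, its window ending where the annotated Tcf21 exon begins. Counted over the full 300-base windows, Hhip had 30, more than 88.3% of the 32851 windows in the table, against 12 in Meox2 and 8 in both Tbx4 and Tcf21 (median of all windows, 7). The Tbx4 window belongs to the shortest annotated transcript and lies inside an intron of the longer ones. A search of both strands for a GLI site (GACCACCCA), a T-box site (AGGTGTGA), a forkhead site (TGTTTAC) and a STAT site (TTCNNNGAA) found 0 matches in these 4 windows. Among all windows, 0.253%, 1.28%, 3.65% and 8.30% held them. The result says only that these letters are not in these short windows.

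Among the T-box genes, Tbx2 was at 348, 430, 372 and 164 CPM in Control 1 to 4 and at 363, 438, 622 and 416 CPM in TTI-101 1 to 4. Control 4 was far below the other controls, and 2 treated mice exceeded every control. Tbx3 stood at 132, 134, 91.5 and 41.1 CPM in Control and at 161, 110, 171 and 165 CPM in TTI-101. Here 3 treated mice lay above all controls, and TTI-101 2 lay among them. For Tbx4 the values were 97.8, 87.6, 54.5 and 33.3 CPM in Control and 128, 79.7, 133 and 107 CPM in TTI-101. Tbx5, which with Tbx4 drives early lung bud growth, was at 46.7, 46.4, 31.9 and 14.1 CPM in Control and at 53.3, 45.8, 64.9 and 65.2 CPM in TTI-101. Both repeated the Tbx3 pattern, with 3 treated mice above all controls and TTI-101 2 below the highest control.

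Foxf1 had 191, 214, 188 and 83.9 CPM in Control and 280, 154, 393 and 337 CPM in TTI-101. The gap between TTI-101 2 and the other treated mice was wider here than for the T-box genes, and that mouse was below 3 of the 4 controls. Tcf21 was at 76.0, 80.8, 57.4 and 18.3 CPM in Control and at 77.6, 61.7, 131 and 89.0 CPM in TTI-101. The Control 4 value of this lipofibroblast factor was 25.6% of the mean of the other controls, the lowest such share among the 9 genes. Meox2 was at 22.4, 20.0, 19.8 and 10.9 CPM in Control and at 26.0, 15.8, 26.9 and 18.7 CPM in TTI-101. Only 2 treated mice exceeded the highest control, and the other two lay below 3 of the controls.

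The Hedgehog pathway members behaved otherwise. Hhip was at 35.9, 62.0, 33.4 and 35.3 CPM in Control and at 41.9, 29.6, 39.7 and 52.1 CPM in TTI-101. Control 2 was the highest of all 8 mice, and Control 4 sat with Control 1 and 3 at 80.7% of the mean of the other controls. Gli1 was at 12.9, 18.2, 15.1 and 7.48 CPM in Control and at 12.6, 16.8, 15.8 and 10.1 CPM in TTI-101. No treated mouse exceeded the highest control in either gene.

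**Figure D1:**
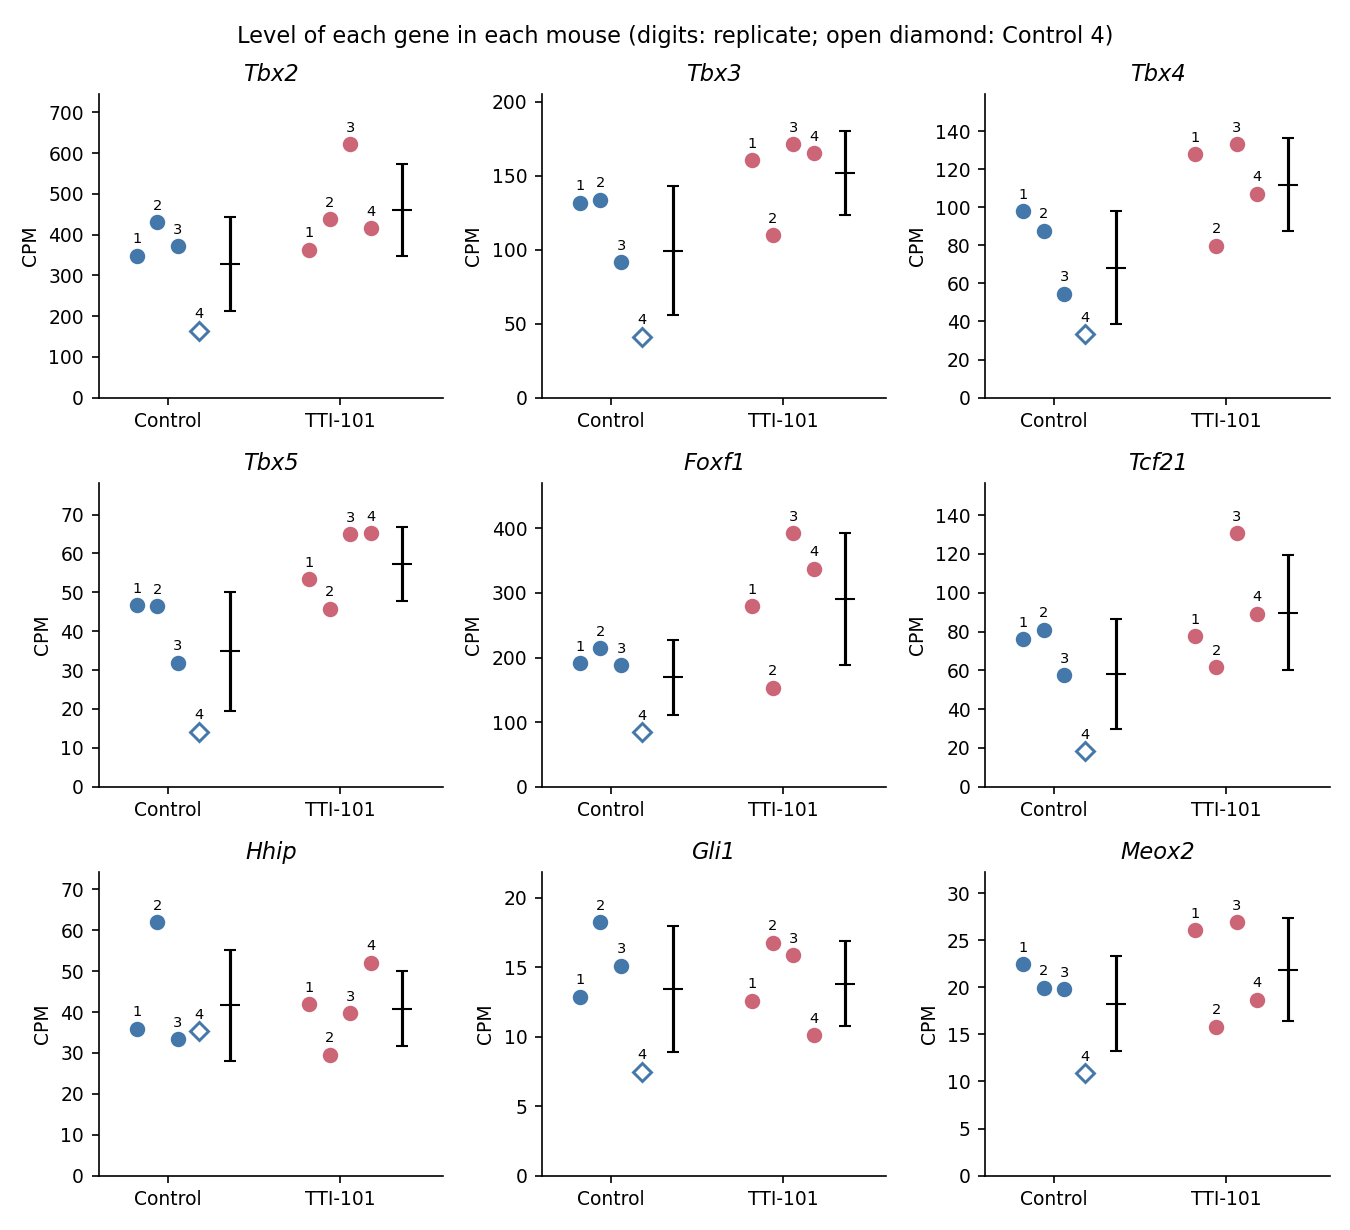
Level of each of the 9 genes (CPM, linear axis from 0) in every mouse, Control in blue and TTI-101 in red, with the replicate number above each point and the group mean ± SD in black (n = 4 per group). Control 4, the open diamond, is the lowest mouse in 8 of the 9 panels, and in Hhip it lies with Control 1 and 3.

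Thus Control 4 was the lowest of the 8 mice for 8 of 9 members, TTI-101 2 was the lowest treated mouse for 7, and TTI-101 3 was the highest of all mice for 6. In 4 members (Tbx3, Tbx4, Tbx5 and Foxf1) 3 treated mice exceeded every control, in 3 (Tbx2, Tcf21 and Meox2) 2 did, and in Hhip and Gli1 none did. These counts rest on the highest control and do not depend on Control 4. The groups overlapped for all members, 0 of 9 being fully separated, while 2.96% of all tested genes were.

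The mean levels translate into the following differences. Foxf1 averaged 169 ± 58.2 CPM in Control and 291 ± 102 CPM in TTI-101 (mean ± SD, n = 4 each), which edgeR gave as a log2 fold change of 0.78 with a standard error (SE) of 0.33. Tbx5 averaged 34.8 ± 15.4 and 57.3 ± 9.48 CPM, with a log2 fold change of 0.72 (SE 0.32), and Tbx4 68.3 ± 29.8 and 112 ± 24.3 CPM, with 0.71 (SE 0.31). These are the largest differences in the set. The means of Tcf21 were 58.1 ± 28.4 and 89.7 ± 29.5 CPM (log2 fold change 0.63, SE 0.39), those of Tbx3 99.5 ± 43.5 and 152 ± 28.3 CPM (0.61, SE 0.32), and those of Tbx2 329 ± 115 and 460 ± 113 CPM (0.48, SE 0.28). Meox2 followed with 18.3 ± 5.07 and 21.9 ± 5.48 CPM (0.26, SE 0.25). The groups had nearly the same mean for Gli1, at 13.4 ± 4.53 and 13.8 ± 3.06 CPM (0.04, SE 0.28), and for Hhip, at 41.6 ± 13.6 and 40.8 ± 9.23 CPM (-0.03, SE 0.24). The median over the 9 genes was 0.61, against 0.00 over all genes tested. Since the genes were chosen with this difference in view, the gap between these medians carries no test.

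The size of these differences rested on Control 4 in part. Without that mouse the log2 fold change was 0.57 for Foxf1, 0.50 for Tbx4, 0.47 for Tbx5, 0.36 for Tbx3, 0.34 for Tcf21, 0.27 for Tbx2 and 0.09 for Meox2, in each case the lowest value reached by leaving out any single mouse. Gli1 changed sign, to -0.15, and the median of the 9 genes fell to 0.34. Without TTI-101 3 that median was 0.39, and without Control 2, where it was highest, 0.79. Tbx2, Tbx3, Tbx4, Tbx5, Foxf1, Tcf21 and Meox2 thus stayed above 0 whichever mouse was left out, while Hhip ranged from -0.17 without TTI-101 4 to 0.24 without Control 2.

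**Figure D2:**
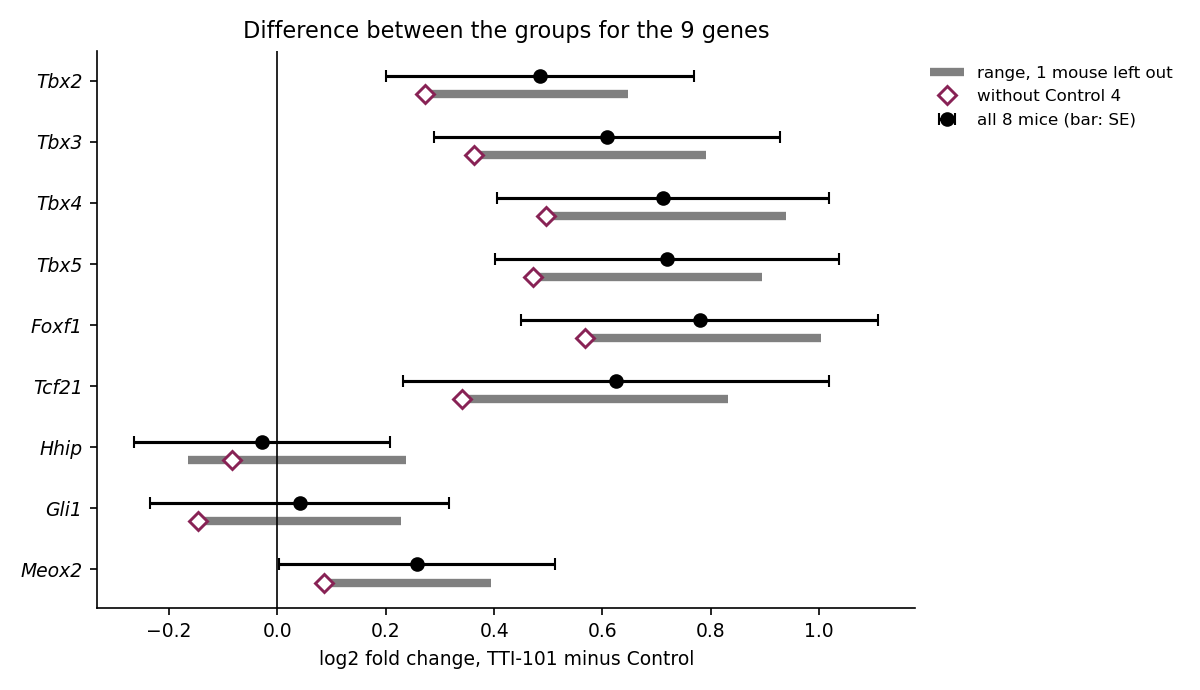
Log2 fold change (TTI-101 minus Control) of each gene, with all 8 mice (black point, bar ± SE), the range over the fits that leave out 1 mouse (grey) and the fit without Control 4 (open diamond). The diamond lies at the low end of the grey range for all genes but Hhip, and the ranges of Hhip and Gli1 include 0.

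With all 8 mice, the spread between mice of a group exceeded the trend at equal abundance for the T-box genes, Foxf1 and Tcf21. Without Control 4 most of this excess was gone for the T-box genes and Tcf21, but only part of it for Foxf1. The biological coefficient of variation (that spread after counting noise is taken out) was 39.0% for Tcf21, where the trend over all genes gave 21.4%. It was 33.2% for Foxf1, 32.3% for both Tbx3 and Tbx5, and 31.0% for Tbx4, with trend values between 21.3% and 22.9%, and 29.1% for Tbx2, with a trend value of 23.7%. The Hedgehog genes and Meox2 lay close to the trend, with 25.2% against 23.3% for Hhip, 29.1% against 28.8% for Gli1 and 27.1% against 26.5% for Meox2. Without Control 4, a setting chosen after seeing the data, the value was 23.3% for Tcf21 (trend 19.1%), 25.9% for Foxf1 (20.1%), 22.6% for Tbx4 (18.9%) and 24.7% for Hhip (20.4%). Tbx3 (19.9%, trend 19.4%), Tbx5 (19.3%, 19.9%), Tbx2 (19.6%, 20.5%), Gli1 (22.1%, 25.1%) and Meox2 (21.4%, 23.3%) were then near or below the trend. In Control, which includes the divergent mouse, the plain coefficient of variation of Tcf21 was 48.9%, and in TTI-101 it was 32.9%.

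Per kilobase of transcript, Tbx2 was the most abundant member at 109 ± 34.9 FPKM (mean ± SD over 8 mice, using the gene length of the table), followed by Foxf1 at 95.3 ± 41.7 FPKM. Both stood above 97% of the 14718 tested protein-coding genes, at percentiles 97.7 and 97.2. Tcf21 (31.5 ± 13.5 FPKM), Tbx4 (26.5 ± 10.1) and Tbx3 (19.0 ± 6.64) formed the middle of the order, at percentiles 89.7, 87.4 and 81.2. Tbx5 reached 9.85 ± 3.61 FPKM and Meox2 8.50 ± 2.22 FPKM. Hhip, at 4.54 ± 1.19 FPKM, and Gli1, at 2.73 ± 0.717 FPKM, were the lowest, at percentiles 42.2 and 29.7. Neighbours in this order were compared within mice by a two-sided exact sign-flip permutation test over 8 mice, for which 0.00781 is the smallest possible p. Of 8 neighbouring pairs, 5 differed after adjustment over the pairs: Foxf1 over Tcf21, Tbx4 over Tbx3, Tbx3 over Tbx5 and Meox2 over Hhip (each in 8 of 8 mice, exact permutation adjusted p = 0.0156), and Hhip over Gli1 (7 of 8 mice, exact permutation adjusted p = 0.025). The tightest ratio was that of Tbx3 to Tbx5, a log2 ratio of 0.96 ± 0.11 (SD over 8 mice, range 0.76 to 1.09). Tbx2 and Foxf1 did not differ beyond their spread (log2 ratio 0.25 ± 0.39, exact permutation adjusted p = 0.152), nor did Tcf21 and Tbx4 (0.20 ± 0.33, exact permutation adjusted p = 0.152) or Tbx5 and Meox2 (0.14 ± 0.45, exact permutation adjusted p = 0.43). The order of the 9 means over both groups was the same whichever mouse was left out. It differed between the groups in 1 place, with Meox2 (7.74 FPKM) above Tbx5 (7.44 FPKM) in Control and Tbx5 (12.3 FPKM) above Meox2 (9.26 FPKM) in TTI-101.

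**Figure D3:**
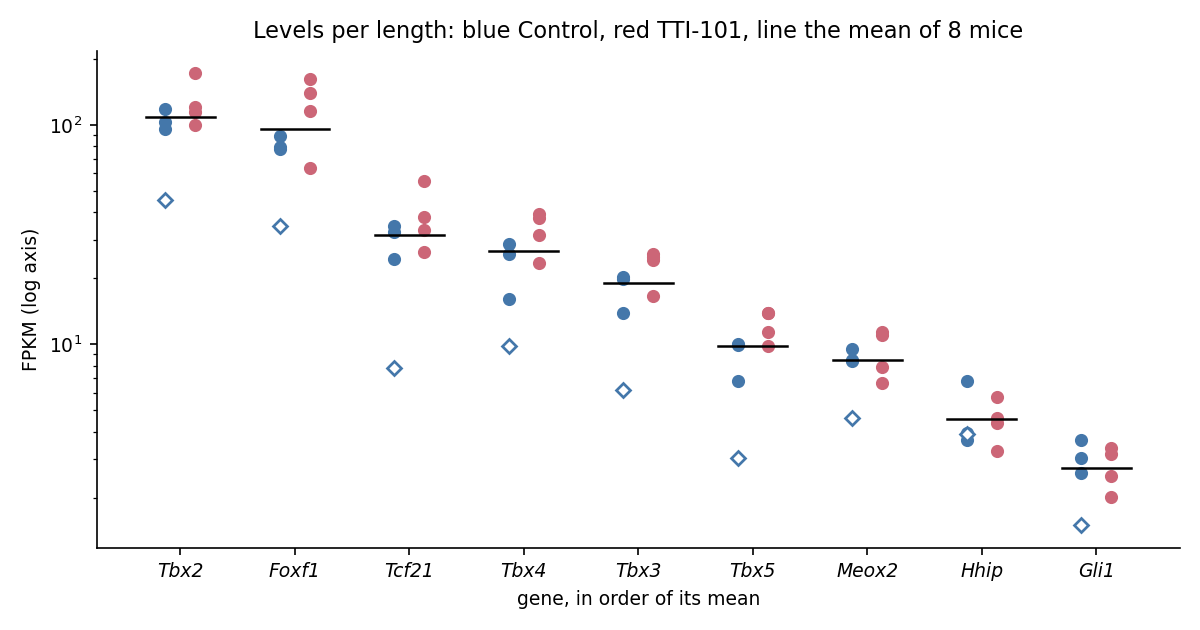
FPKM of each gene on a log axis, in order of the mean over 8 mice (black line), with Control in blue, TTI-101 in red and Control 4 as an open diamond. Tbx2 and Foxf1 lie near 100 FPKM and Gli1 near 3 FPKM, and Control 4 is at the bottom of every column except Hhip.

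To see which members varied together apart from the treatment, the deviation of each mouse from its group mean (log2 CPM) was correlated between genes. These coefficients are descriptions over 8 libraries, and the points share library, depth and tissue composition. Tbx3 and Tbx5 were the closest pair (r = 0.986, and 0.935 over the 7 mice without Control 4), although the genes are 148 kb apart and not overlapping. Next came Tbx5 with Tcf21 (0.969, without Control 4 0.844) and Tbx3 with Tbx4 (0.961, without Control 4 0.939), the latter on different chromosomes. The neighbours Tbx2 and Tbx4 were less alike, at 0.724, and at 0.170 without Control 4. The median over all 36 pairs was 0.813, and 0.609 without Control 4. Within the T-box genes (6 pairs) it was 0.892 and 0.590.

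Gli1 and Hhip departed from the rest in different ways. The correlation of Gli1 with the other members had a median of 0.593 over 8 mice and of -0.178 without Control 4, and only Tbx2 stayed well above 0 (0.871, without Control 4 0.604). Hhip had medians of 0.461 and 0.502, with its closest member Foxf1 over 8 mice (0.583) and Tbx3 over 7 (0.718). Gli1 and Hhip, both Hedgehog targets, were not correlated with each other (0.0914, without Control 4 -0.160).

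**Figure D4:**
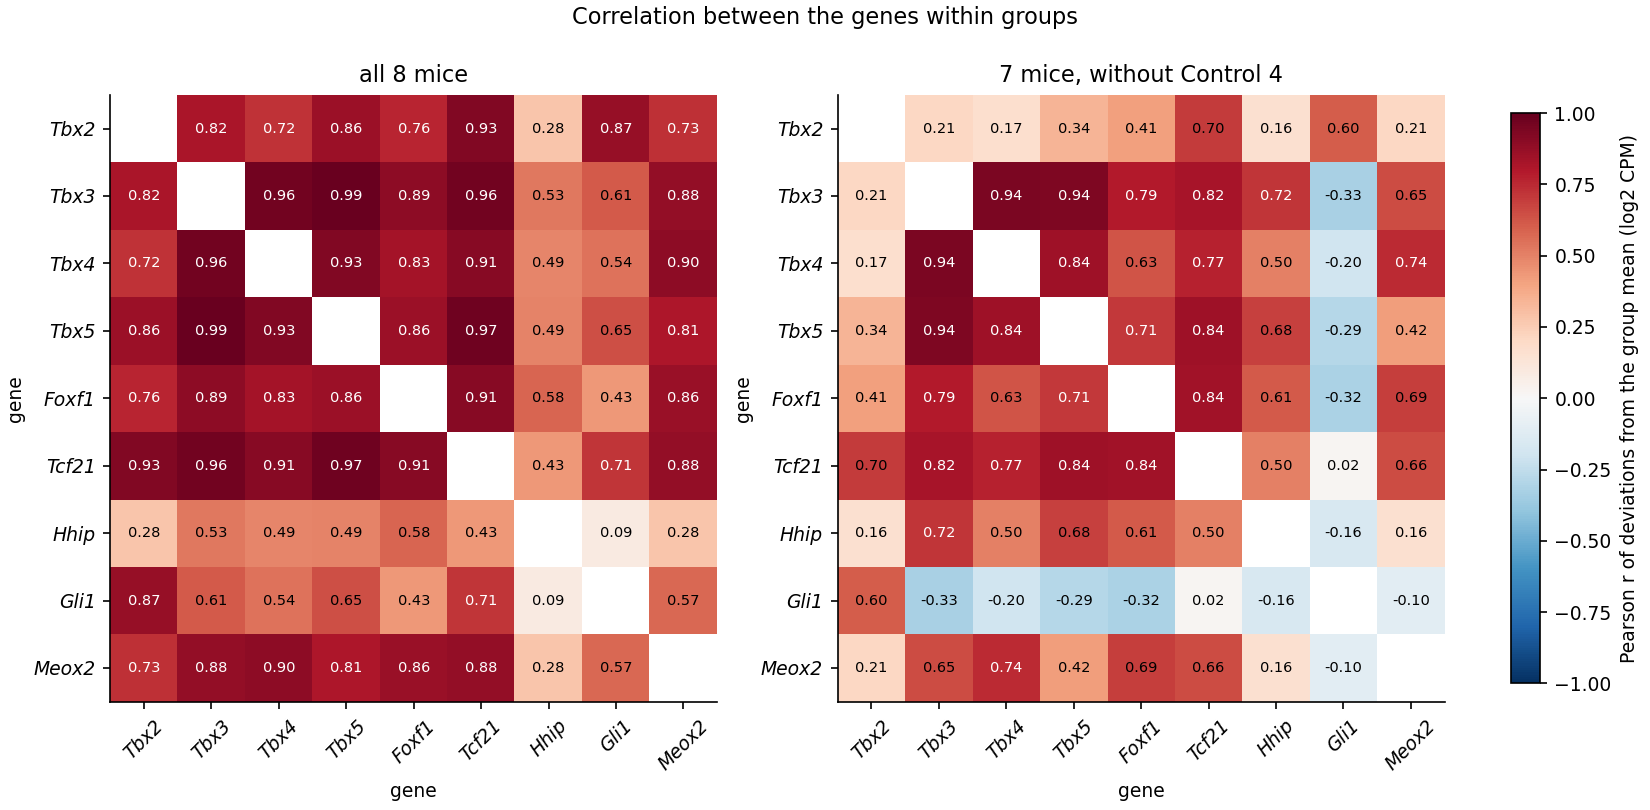
Pearson r between the 9 genes, from deviations of log2 CPM from the group mean, over all 8 mice (left) and over the 7 mice without Control 4 (right). Tbx3, Tbx4, Tbx5, Foxf1 and Tcf21 form a block that stays red in both panels (0.63 or more), while the row of Gli1 turns blue or pale on the right for all genes but Tbx2.

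The same mice were then read with lists of genes for cell types and pathways, none of which holds a member. Control 4 had the lowest mean log2 CPM of the 8 mice in 13 of 14 lists and the highest in the remaining one, epithelium (Epcam, Cdh1, Krt8 and others), at 8.50 against 7.59 to 7.96 in the other controls and 7.19 to 7.995 in TTI-101. Mean log2 CPM over all genes tested was also lowest in Control 4, at 3.887. It was 3.986 to 3.993 in the other controls and 3.981 to 4.008 in TTI-101. The capillary endothelium list (13 genes) of Control 4 was at 6.48, with 7.60 to 7.85 in the other controls and 7.50 to 8.26 in TTI-101. Its alveolar fibroblast list (10 genes) was at 5.84, with 7.07 to 7.64 in the other controls and 7.12 to 8.23 in TTI-101. The cardiomyocyte list (10 genes) showed the widest gap, 1.12 in Control 4 against 4.65 to 5.78 in the other controls and 5.09 to 6.76 in TTI-101, and 2 of its genes were at 0 in at least 1 library. No gene of the epithelium, capillary endothelium or alveolar fibroblast lists was at 0 in any library. The part of these shifts in the levels of the 9 genes was not tested.

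Between the groups, the lists of the cells that neighbour the members lay above 0 and epithelium below it. In alveolar fibroblasts the median log2 fold change was 0.70, with 9 of 10 genes higher in TTI-101. It was 0.55 for capillary endothelium (13 of 13 higher), 0.58 for mesothelium (7 of 7) and 0.40 for pericytes (9 of 10), against 0.21 for adventitial fibroblasts, 0.10 for peribronchial myofibroblasts and 0.10 for smooth muscle. Epithelium had a median of -0.56, with 8 of 9 genes lower, the immune list one of 0.45 (10 of 10 higher) and cardiomyocytes one of 0.80 (10 of 10 higher). No gene of these lists passed the adjusted threshold. At an unadjusted p under 0.05, which 3.02% of all tested genes reached as higher and 3.58% as lower in TTI-101, there were 4 lower genes among the 9 of epithelium, 3 higher among the 10 immune, 2 higher among the 13 endothelial and 1 higher each among the 10 alveolar fibroblast and the 10 pericyte genes. Without Control 4 the medians shrank to 0.03 for adventitial fibroblasts (0.00 without TTI-101 3), 0.46 for alveolar fibroblasts, 0.30 for capillary endothelium, 0.28 for mesothelium, 0.26 for pericytes, 0.28 for the immune list and -0.27 for epithelium, and that of cardiomyocytes was 0.25 without TTI-101 2. Those of smooth muscle (-0.12) and peribronchial myofibroblasts (-0.13) changed sign.

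**Figure D5:**
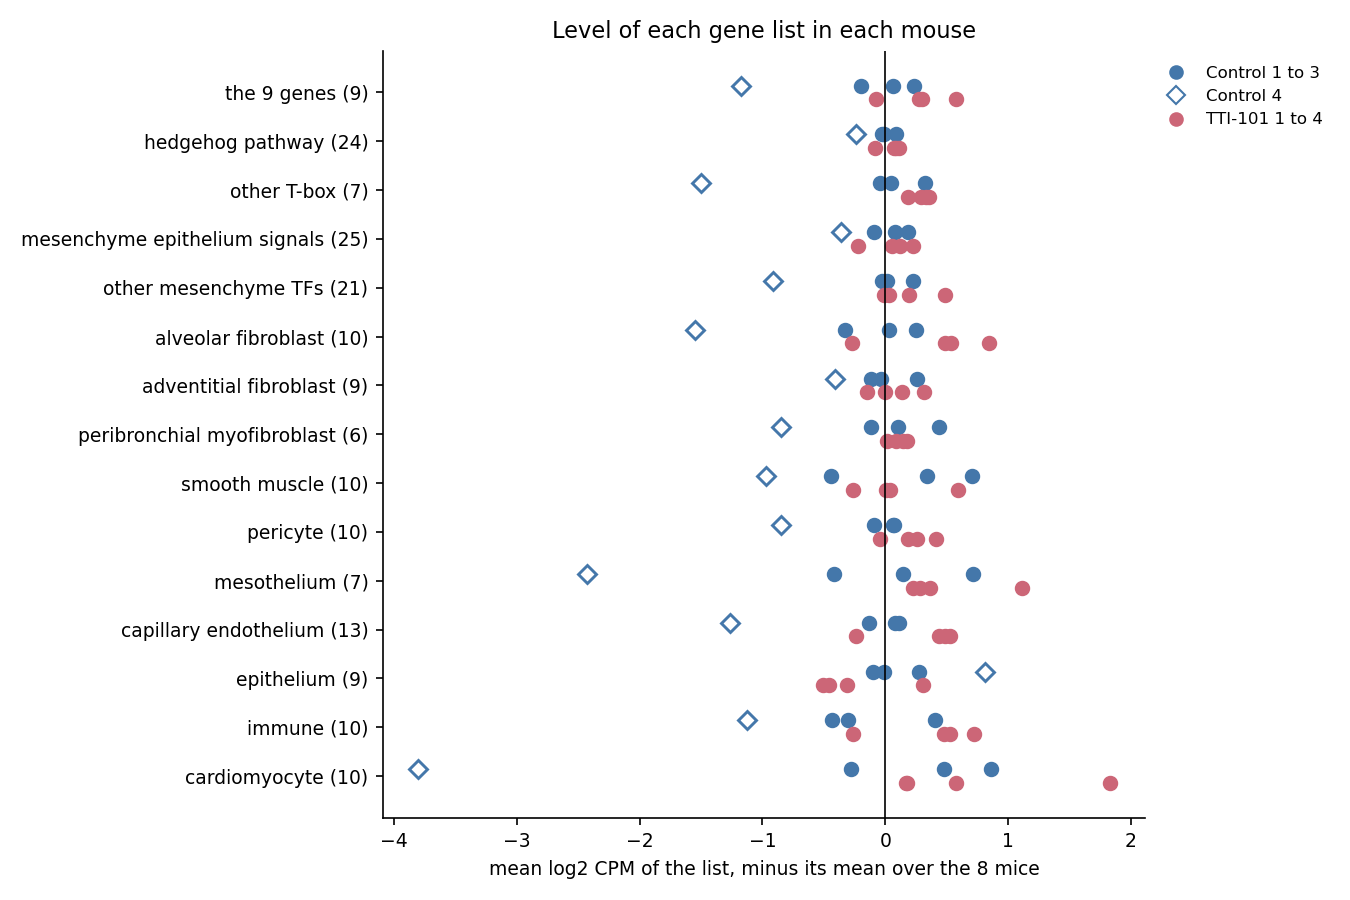
Mean log2 CPM of the 9 genes and of each gene list in each mouse, as the difference from the mean over the 8 mice, with the number of tested genes in brackets, Control 1 to 3 in filled blue, Control 4 as an open diamond and TTI-101 in red. Control 4 is at the far left in every row except epithelium, where it is at the far right.

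The genes described next were among the 2 of lowest unadjusted p in their list, so they show its extremes. Ces1d (alveolar fibroblast, log2 fold change -0.13), Abcc9 (pericyte, -0.27) and Cldn18 (epithelium, 0.08) had the sign opposite to the rest of their list. In the alveolar fibroblast list, Col13a1, a transmembrane collagen, averaged 36.1 CPM in Control and 72.4 CPM in TTI-101 (log2 fold change 1.00, SE 0.42), and Pdgfra, the platelet-derived growth factor receptor of fibroblasts, 181 and 300.2 CPM (0.73, SE 0.34). Notch3, a receptor of mural cells, was at 92.4 and 142 CPM (0.62, SE 0.20). Its groups did not overlap, as for no other of the 10 pericyte genes and for 2.96% of all tested genes. Plvap, which forms the diaphragms of fenestrated capillaries, was at 384 and 661 CPM (0.78, SE 0.33). The keratins Krt8 (440 and 269 CPM, -0.71, SE 0.30) and Krt18 (258 and 138 CPM, -0.90, SE 0.36) had the opposite sign, at -0.35 and -0.45 without Control 4. Without Control 4 the log2 fold change was 0.51 for Pdgfra and 0.54 for Plvap. Without TTI-101 3 it was 0.74 for Col13a1 and 0.47 for Notch3. These are the lowest values of each gene when 1 mouse was left out. In edgeR the adjusted p was 0.657 for each of Col13a1, Pdgfra, Notch3, Plvap, Krt8 and Krt18.

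Within groups, the members followed these lists to different degrees. Tcf21 tracked the pericyte list (r = 0.993, and 0.966 without Control 4) and Foxf1 the capillary endothelium list (0.950, without Control 4 0.940). Foxf1 was about as close to the Hedgehog list (0.958, without Control 4 0.915) and the pericyte list (0.926, without Control 4 0.930). The alveolar fibroblast list was followed by Tbx3 (0.973, without Control 4 0.927), Tbx4 (0.962, without Control 4 0.904) and Meox2 (0.937, without Control 4 0.836). Tcf21 (0.962, without Control 4 0.882), Tbx5 (0.946, without Control 4 0.832) and Foxf1 (0.937, without Control 4 0.875) were about as close to it as Meox2. Tcf21 was also near the mesothelium list (0.968, without Control 4 0.842). Tbx3 was as close to capillary endothelium (0.979, without Control 4 0.916) and pericytes (0.978, without Control 4 0.894). These values assign neither Tbx3 nor the other members named so far to a single cell type. Gli1 was closest to smooth muscle, with 0.916 and, without Control 4, 0.832. For the other members the value without Control 4 ran from -0.507 for Tbx3 to 0.298 for Tbx2. All members but Gli1 and Tbx2 were inversely related to the epithelium list without Control 4, from -0.907 for Tbx3 to -0.617 for Tcf21.

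Of the other 24 Hedgehog pathway genes, all tested, the median log2 fold change was 0.07, with 13 higher and 11 lower in TTI-101 and none past the adjusted threshold. At an unadjusted p under 0.05 there was 1 in each direction, beside 3.02% higher and 3.58% lower over all tested genes. Among the ligands, Shh was at 26.1, 35.0, 46.1 and 65.0 CPM in Control and at 23.6, 27.8, 27.2 and 19.0 CPM in TTI-101. The controls spread widely, Control 4 was the highest of all mice, and 2 treated mice lay below every control. The log2 fold change was -0.82 (SE 0.26, edgeR adjusted p = 0.657), and -0.54 without Control 4. Ihh (1.22 and 0.634 CPM in Control and TTI-101) and Dhh (2.58 and 3.28 CPM) had low counts. Scube2, which helps release the ligand, was at 15.9 ± 14.9 and 35.5 ± 18.9 CPM, a log2 fold change of 1.15 with an SE of 0.71. This value rested on single mice, being 1.94 without Control 1 and 0.80 without Control 4.

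The receptor Ptch1, itself a pathway target like Gli1 and Hhip, averaged 95.0 CPM in Control and 88.1 CPM in TTI-101 (log2 fold change -0.11, SE 0.16). The signal transducer Smo (0.27, SE 0.15), the co-receptors Boc (0.19, SE 0.16), Cdon (-0.12, SE 0.14) and Gas1 (0.30, SE 0.35), the inhibitor Sufu (0.25, SE 0.14) and the factors Gli2 (0.09, SE 0.31) and Gli3 (-0.42, SE 0.28) all lay between -0.42 and 0.30. Gpc3, a glypican that competes for the ligand, was at 118 and 174 CPM (0.56, SE 0.35), and Lrp2, an endocytic receptor of epithelium, was at 143 and 80.9 CPM (-0.82, SE 0.40). Without Control 4 these were 0.35 and -0.28, and without TTI-101 3 Gpc3 was at 0.32. Gas1 ran from -0.03 without TTI-101 3 to 0.65 without Control 2. Evc, a ciliary protein that works with Smo, was at 14.5, 14.9, 12.2 and 8.06 CPM in Control and at 19.3, 17.4, 18.7 and 19.6 CPM in TTI-101. Its groups did not overlap, as for no other of the 24 Hedgehog genes and for 2.96% of all tested genes. The log2 fold change of Evc was 0.59 (SE 0.21, edgeR adjusted p = 0.657), and 0.45 without Control 4. Its partner Evc2 was at 14.4 and 18.6 CPM (0.36, SE 0.21). The remaining regulators ran from -0.65 for Stk36 through -0.17 for Iqce, -0.08 for Hhat, 0.00 for Spop, 0.06 for Gpr161 and 0.17 for Disp1 to 0.32 for Kif7.

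Of the T-box genes other than the members, 13 are in the table and 7 passed the filter. Tbx1, a factor of pharyngeal and heart development, was at 39.6, 83.8, 99.9 and 67.4 CPM in Control and at 38.3, 66.5, 45.3 and 36.9 CPM in TTI-101. Its log2 fold change of -0.64 (SE 0.28, edgeR adjusted p = 0.657) had the opposite sign to that of the T-box members. Tbx20, a heart factor, was at 1.57 ± 1.28 and 3.93 ± 1.63 CPM (1.32, SE 0.61). The T-lymphocyte factors Tbx21 and Eomes had log2 fold changes of 1.04 (SE 0.57) and 0.69 (SE 0.52), Tbx6 of 0.45 (SE 0.42), Tbx18 of 0.10 (SE 0.51) and Mga, a repressor with a T-box domain, of -0.20 (SE 0.21). Like the members, 5 of the 7 were lowest in Control 4: Eomes at 0.640, Tbx6 at 1.22, Tbx18 at 0.256, Tbx20 at 0.192 and Tbx21 at 0.256 CPM. Without that mouse the log2 fold change was 0.99 for Tbx20, 0.68 for Tbx21, 0.39 for Eomes, 0.15 for Tbx6, -0.17 for Tbx18, -0.01 for Mga and -0.66 for Tbx1.

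The median log2 fold change of other mesenchymal transcription factors was 0.32 (18 of 21 higher), which was 0.09 without Control 4. The lowest unadjusted p-values belonged to Hoxa3, a positional homeobox gene (10.2 and 16.4 CPM, log2 fold change 0.69, SE 0.26), and Hic1, a repressor of quiescent mesenchymal cells (25.7 and 41.9 CPM, 0.70, SE 0.31). The Hic1 difference was 0.24 without TTI-101 3. Signals exchanged between mesenchyme and epithelium had a median of 0.16 over 25 tested genes (0.05 without Control 4). At an unadjusted p under 0.05, 1 gene was higher and 4 were lower, beside 3.02% and 3.58% of all tested genes. Wnt2, a mesenchymal ligand that acts with Tbx4 and Tbx5 at the start of lung development, averaged 6.67 ± 4.96 and 16.9 ± 8.52 CPM (1.33, SE 0.53). The Wnt2 difference ran from 1.03 without TTI-101 3 to 2.00 without Control 1. Grem1, a secreted BMP antagonist, averaged 2.44 ± 0.731 and 0.960 ± 0.601 CPM (-1.35, SE 0.45). For all 4 genes edgeR's adjusted p was 0.657.

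Within 100 kb of the members, 22 other genes were tested, and 19 of them were higher in TTI-101 (median log2 fold change 0.32, range -0.31 to 0.80). Over all genes tested, 8669 of 17138 were higher. Without Control 4, 17 were higher, with a median of 0.15. None passed the adjusted threshold. Of all tested genes, 3.02% were higher and 3.58% lower at an unadjusted p under 0.05, and 1 neighbour reached that level. That gene was Bcas3, 6.49 kb from Tbx2, at 31.6, 29.8, 25.5 and 24.6 CPM in Control and 34.3, 33.0, 44.4 and 36.6 CPM in TTI-101. Its groups did not overlap (log2 fold change 0.41, SE 0.15, edgeR adjusted p = 0.657). Those of R3hdm2 near Gli1 did not overlap either (0.25, SE 0.13), as in 2.96% of all tested genes. Several neighbours are noncoding transcripts that start close to a member on the opposite strand. Fendrr, 1.28 kb from Foxf1, was at 235, 285, 275 and 72.0 CPM in Control and at 311, 205, 316 and 332 CPM in TTI-101. It shared with Foxf1 the low values of Control 4 and TTI-101 2 (r = 0.891, without Control 4 0.905), with a log2 fold change of 0.43 (SE 0.36) that was 0.15 without Control 4. 2610027K06Rik beside Tbx2 (0.80, SE 0.44), Tbx3os1 overlapping Tbx3 (0.59, SE 0.47), Gm43050 beside Tbx5 (0.62, SE 0.35) and Gm10824 overlapping Tcf21 (0.70, SE 0.45) had the sign of their member. Without Control 4 these were 0.49, 0.27, 0.41 and 0.43. Whether reads were assigned by strand is not given in the sources used here, so reads of overlapping antisense pairs may not be fully separated. The coding neighbours of Foxf1, Foxc2 (0.41, SE 0.44), Mthfsd (0.28, SE 0.18) and Foxl1 (-0.31, SE 0.30), had r with it of 0.461, -0.137 and 0.103, and of -0.461, -0.551 and -0.0551 without Control 4. Around Gli1, the 9 tested neighbours ran from -0.08 for Ddit3 to 0.59 for Arhgap9 (0.39 without Control 4), which overlaps it on the opposite strand. Among these Mbd6 (r = 0.905, without Control 4 0.714), Dctn2 (0.729, without Control 4 0.770) and Ddit3 (0.640, without Control 4 0.720) varied with Gli1. So did Kif5a (0.852, without Control 4 0.526) and Gm20492 (0.816, without Control 4 0.521). Mars did not (-0.345, without Control 4 -0.304). The remaining values were 0.545 for Arhgap9 (without Control 4 -0.295), 0.515 for R3hdm2 (0.104) and 0.0813 for Gm4189 (0.382). Hhip had no tested gene within 100 kb.

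Beyond the lists, the genes whose within-group deviations were most like a member's were sought among 15916 genes with a mean of at least 1 CPM. For Tbx3 these were Haao, an enzyme of tryptophan breakdown (r = 0.998, without Control 4 0.993), and Cbfa2t3 (0.996, 0.981). For Tcf21 they were Plvap (0.996, 0.991) and Fgfr4, a fibroblast growth factor receptor (0.995, 0.982). Tbx4 was closest to Gm10134 (0.994, 0.985) and Mamdc2 (0.991, 0.979), Tbx5 to Vstm5 (0.992, 0.974) and Gnb4 (0.991, 0.953), and Tbx2 to Flot2 (0.990, 0.976) and Ino80e (0.990, 0.962). Foxf1 was closest to Lgals2 (0.993, 0.988) and Gpr153 (0.989, 0.978), Meox2 to Rai2 (0.993, 0.997) and Hopx (0.988, 0.988), and Gli1 to Adh1 (0.987, 0.963) and Gm15441 (0.986, 0.978). Hhip had looser partners, Gm26773 (0.926, 0.941) and Fat4 (0.906, 0.906). Only 4 genes (0.0251%) were above 0.9 for Hhip, whereas Tbx3 had 656 (4.12%) and Gli1 288 (1.81%). These coefficients too are descriptions over 8 libraries. Each partner was picked as the highest of all candidates, and the values without Control 4 reuse the same mice. Their size is therefore no test of a link.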

How the data were processed

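Whole-lung RNA of 4 Control and 4 TTI-101 mice was prepared with a stranded poly(A) kit and sequenced as paired ends, with 1 library per mouse. The values are whole-number read counts per gene, deposited by the authors without normalization. The submitters' processing notes name STAR, DESeq2 and mm10, and the counting tool and its strand setting are not given in the sources used here. The counts were analysed in R 4.3.3. edgeR 4.0.16 (filterByExpr with a minimum count of 10, TMM scaling, robust quasi-likelihood F-test, Benjamini-Hochberg adjustment) compared the groups over 17138 of 54532 genes, without a batch term. DESeq2 1.42.0 and limma-voom (limma 3.58.1) were alternatives, all tested on simulated data. CPM were TMM-scaled. Correlations used log2 CPM with a prior count of 2, and FPKM used the gene length of the deposited table. The genes, the lists and the rule for named genes (all members, all tested Hedgehog genes and neighbours within 100 kb, up to 2 genes of lowest p from each other list, and the 2 genes most like each member) were chosen with earlier results of these data known. Promoter windows came from RefSeq, and a planned comparison of T-box proteins was not analysed here. The values without Control 4 of the spread, of the neighbouring genes and of the other T-box genes were added after seeing the data. One named item of the Hedgehog list is not reported here. Libraries of a group differed by 18.8 to 132 times the counting noise (chi-square per gene), so none was counted as a duplicate.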

Additional observations from a re-analysis of the deposited data

Results flagged for a closer look

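Within the groups of 4 mice, single values that stood far from the other three were sought with Dixon's ratio, the gap to the nearest mouse divided by the whole range, compared with its critical value for 4 samples. Of 96 groups tested (the 9 genes, the other Hedgehog genes, the gene lists and the total counts), 5 were found, and chance alone gives about 4.8. Among the 9 genes, Hhip in Control 2 was at 62.0 CPM with the nearest control at 35.9 CPM (ratio 0.913). Without this mouse the log2 fold change of Hhip was 0.24. Cdon, a Hedgehog co-receptor, was at 23.1 CPM in TTI-101 2 with the nearest treated mouse at 21.1 CPM (0.8291). Mean log2 CPM of the mesothelium list was 5.05 in TTI-101 3, next to 4.30 (0.843), and that of the capillary endothelium list was 7.50 in TTI-101 2, next to 8.17 (0.881). TTI-101 2 was also the lowest treated mouse for 7 of the 9 genes, all but Tbx2 and Gli1. The total count of Control 1, 26873509, lay apart from the next at 18220467 (0.83). Control 4 did not exceed the critical value for any of the 9 genes.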

How the results depend on the processing

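The differences of the 9 genes had the same sign with DESeq2, limma-voom, the size factors of DESeq2, library totals, no filter, a minimum of 10 counts in every library, the replicate number as a block and Xist as a covariate, except for Hhip, whose log2 fold change was -0.03 and at most 0.01 (library totals or replicate block). Their median ranged from 0.61 to 0.73 over these settings and from 0.34 to 0.79 when 1 mouse was left out. The number of genes called at an adjusted p under 0.05 was 4 with DESeq2 and 1 with Xist as a covariate, and 0 to 1 without single mice. The number at an unadjusted p under 0.05 was 1849 with no filter and ran from 422 to 2498 without single mice. With the replicate block it was 1298, and 0 genes were called. Same-numbered mice had correlations of 0.442, 0.085, 0.202 and 0.0725, and differently numbered ones ran from -0.459 to 0.185. Of 8 libraries, 5 correlated best with their own number, and replicate 1 held the most counts in each group. The labels name no pairs, so the main fit took none, and whether the numbers mark pairs was not tested. Each group holds 4 mice, and leaving out Control 4 lowered the median of the 9 genes from 0.61 to 0.34. In a setting chosen after seeing the data, the median ratio of the 9 genes' biological coefficient of variation to the trend was 1.41 with all mice and 1.03 without Control 4.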
